A study of Drosophila melanogaster with 18 samples.

Results

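In cells depleted of the insulator protein BEAF-32, 923 topologically associating domain (TAD) borders were called that lay in the list of neither of the other knockdowns. They are 36.1% of the 2557 borders of the BEAF-32 RNAi list. These borders were chosen by their positions in the 3 Hi-C lists: a border is any unique start or end of a TAD, and a member is a BEAF-32 RNAi border with no border of Cp190 RNAi Chro RNAi or of BEAF-32 RNAi Dref RNAi within 2 kb. Of the other BEAF-32 RNAi borders, 802 (31.4%) were shared with Cp190 RNAi Chro RNAi alone, 118 (4.61%) with BEAF-32 RNAi Dref RNAi alone and 714 (27.9%) with both. The lists of the double knockdowns were shorter, with 2163 borders for Cp190 RNAi Chro RNAi and 1417 for BEAF-32 RNAi Dref RNAi. The read depth behind each contact map was not analysed here, and its part in the choice of members was not tested. No TAD list of WT cells was used here, so being in the list of 1 knockdown does not say that a border formed after the knockdown.

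The cells were Drosophila BG3 cells, a line from the larval central nervous system. They were transfected with 50 µg of double-stranded RNA against BEAF-32, against Cp190 together with Chro, or against BEAF-32 together with Dref, and harvested after 72 h. In situ Hi-C of 2 replicates per knockdown, cut with DpnII, was merged into 1 map each, so a border carries no replicate error. The double knockdowns are called the Cp190 Chro and BEAF-32 Dref knockdowns below, and BEAF-32 RNAi is the single one. RNA-seq had 3 libraries of each knockdown and 3 of WT BG3 cells. No double-stranded RNA or harvest time is recorded for the WT libraries. In comparisons with WT the depletion therefore cannot be told apart from the transfection. The study calls its Hi-C replicates biological. No source used here says that the RNA-seq replicates came from separate cultures, and the p-values then reflect only how far these libraries spread, which may be technical.

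Insulator proteins bind DNA between regulatory domains and help to separate them. BEAF-32 binds clusters of the sequence CGATA, mostly beside the promoters of housekeeping genes, and Cp190 and Chro are cofactors that insulator proteins bring to DNA. Dref binds the DNA replication-related element (DRE, TATCGATA), which contains CGATA on both strands. TADs are stretches of chromatin that contact themselves more than their neighbours, and in flies many of their borders lie at active promoters.

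The members that carried the most CGATA lay at gene starts. The border at chr3L:7528444 (dm6) had 11 matches in the 1000 bases around it, the most of any member, 336 bases from the 5′ end of lqf, which encodes the endocytic adaptor epsin. The border at chr3R:5393995 had 9 matches and lay in an untranslated exon of CG1172, 73 bases from its 5′ end. Another 6 had 8 each, beside CG7326, ZnT63C, Stt3A, Hacl and CG31373 and between Ibf2 and Ibf1, all within 406 bases of a 5′ end. The one beside Stt3A lay 2.49 Mb from the centromere-proximal end of X, and the other 7 lay from 4.68 Mb outwards. Stretches of 150 bases are shown for 5 of these 8 windows, each a stretch free of UTR exons and mobile elements with at least 4 matches, on the forward strand of the RefSeq dm6 assembly, with CGATA and its reverse complement TATCG in capitals. TATCGATA counts as 2 CGATA matches, 1 on each strand.
lqf, intergenic, chr3L:7528369-7528518: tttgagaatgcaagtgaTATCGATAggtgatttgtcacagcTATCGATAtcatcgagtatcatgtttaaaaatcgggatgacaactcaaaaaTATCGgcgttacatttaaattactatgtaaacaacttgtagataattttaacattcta
CG1172, upstream of the gene, chr3R:5393772-5393921: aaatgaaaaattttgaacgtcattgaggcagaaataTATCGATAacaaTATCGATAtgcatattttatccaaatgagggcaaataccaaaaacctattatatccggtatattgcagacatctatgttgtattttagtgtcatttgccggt
CG7326, upstream of the gene, chrX:18863781-18863930: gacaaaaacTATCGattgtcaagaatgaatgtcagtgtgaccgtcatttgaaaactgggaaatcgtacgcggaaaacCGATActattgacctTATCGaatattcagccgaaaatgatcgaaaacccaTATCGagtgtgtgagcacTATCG
Ibf1 and Ibf2, between the genes, chr3R:9258801-9258950: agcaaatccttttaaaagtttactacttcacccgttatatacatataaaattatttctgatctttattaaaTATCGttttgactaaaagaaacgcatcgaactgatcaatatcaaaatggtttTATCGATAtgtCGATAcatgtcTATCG
ZnT63C and CG14968, between the genes, chr3L:3303558-3303707: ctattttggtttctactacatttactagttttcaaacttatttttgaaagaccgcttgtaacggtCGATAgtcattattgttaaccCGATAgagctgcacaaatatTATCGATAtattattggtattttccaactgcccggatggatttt
The stretch at lqf holds 2 DRE and 5 CGATA matches, and that at CG1172 holds 2 and 4. The CG7326 stretch holds 5 CGATA matches and no DRE. The Ibf stretch holds 1 DRE and 5 CGATA, and the ZnT63C stretch 1 and 4. Of these 5 borders, only the one beside ZnT63C was also in the strong list.

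Of the 923 members 165 lay within 3 Mb of the centromere-proximal end of an arm, where few had a gene start nearby, 480 (52%) lay farther out with a gene 5′ end within 2 kb, and 278 (30.1%) farther out without one. Near the centromeres most borders of the BEAF-32 RNAi list were members. Within 2 Mb of the centromere-proximal end of an assembled arm, 111 of 154 borders (72.1%, 95% Wilson interval 64.5 to 78.6%) were found only in BEAF-32 RNAi. The share was 59.3% (52.1 to 66.0%) at 2 to 4 Mb and 45.1% (38.1 to 52.3%) at 4 to 6 Mb. From 6 Mb outwards it lay between 27.9% and 35.9% in every 2-Mb bin, and it was 29.1% (193 of 664) beyond 20 Mb. The lists themselves differed there: within 4 Mb of the proximal ends BEAF-32 RNAi had 17.2 borders per Mb, the Cp190 Chro knockdown 10.6 and the BEAF-32 Dref knockdown 12.1, against 19.4, 16.9 and 10.2 per Mb in the rest of the arms. The members within 3 Mb were 165 (17.9%), against 3.24% of the borders shared with the Cp190 Chro knockdown alone, 19.5% of those shared with the BEAF-32 Dref knockdown alone and 4.90% of those shared with both.

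**Figure D1:**
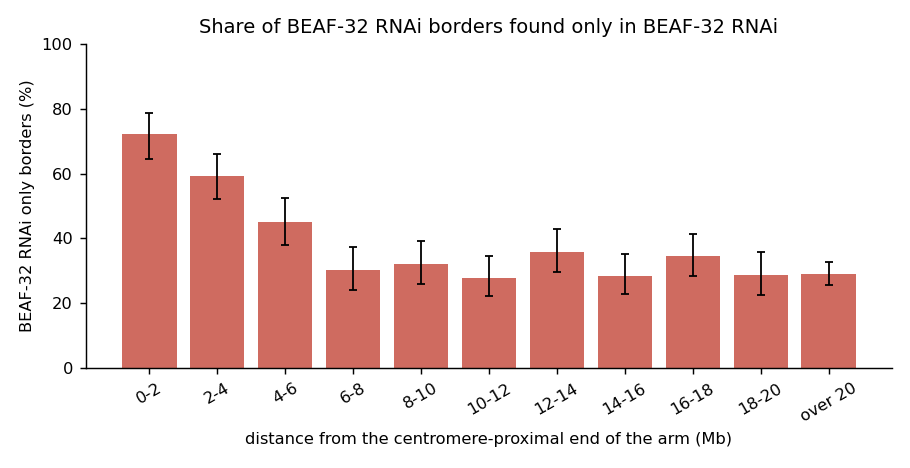
Share (%) of BEAF-32 RNAi borders that were found only in BEAF-32 RNAi, by distance (Mb) from the centromere-proximal end of the arm; whiskers are 95% Wilson intervals, which cover counting error only. The first 3 bins hold 72.1%, 59.3% and 45.1%, and every later bin lies between 27.9% and 35.9%.

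Among the arms the share of members varied less. It was 34.2% on 2L (152 of 445), 33.9% on 2R (166 of 489), 36.8% on 3L (197 of 536), 39.4% on 3R (259 of 658) and 35.4% on X (140 of 395). Chromosome 4 gave 5 members of 24 borders and Y 4 of 10. The intervals of the 5 large arms overlapped, from 29.9 to 43.1%.

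A few long genes in the proximal regions held many members. Myo81F, a myosin gene at chr3R:567076-2532932, held 34 members and only 7 borders found in another list. DIP-lambda (chr2R:326768-705848), an immunoglobulin-domain protein of the Dpr-interacting family, held 11 members and no shared border. Pzl (chr3R:2554162-3263582), a Piezo-like channel gene, held 11 members and 8 shared borders, and lovit (chr3L:25236940-25670980) held 6 and 3. Outside the proximal regions, SKIP (chr3R:22133830-22296126) held 3 members and no shared border. Mobile elements were annotated within 1 kb of 22 of the 165 members within 3 Mb (13.3%) and of 37 of the 758 elsewhere (4.88%). How well reads can be placed in these regions was not measured here, and its part in the gradient was not tested.

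Neighbouring members often followed each other. The 923 members formed 549 runs with no shared border between them, of which 348 were single members, 117 were pairs and 84 held 3 or more, and these 84 runs held 341 members. The 2 longest runs had 14 members each, at chr2R:78848-676906 in and before DIP-lambda and at chr3R:1171339-1682685 within Myo81F. Between their ends lay 10 and 9 borders of the other lists, all over 2 kb from a member. The other lists thus had borders there too, at other positions. Along the arms, a run of 8 members at chrX:18635577-19082196 held wgn, S6KL, CG7326 and Dora, with 9 borders of the other lists inside.

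The longest run with no border of another list between its ends was at chr3R:18572770-18731437, where 6 members followed each other over 158667 bases. Its borders lay at 18572770 beside fray, at 18585949 inside fray, at 18629419 in qin, at 18658673 beside CG31224 and CstF64, at 18677694 between dind and CG7706, and at 18731437 in ChAT. In the BEAF-32 Dref knockdown a single TAD of 439027 bases (chr3R:18414351-18853378) covered this stretch and held 8 members, the second-highest number in that list after 9. The genes here were picked after their values were seen. fray, an Ste20-family kinase gene (chr3R:18573091-18589459), gave 37.4, 34.7 and 31.6 CPM (counts scaled by the library total) in WT, 65.8, 62.7 and 144 in BEAF-32 RNAi, with 85.9, 83.3 and 80.1 in the Cp190 Chro knockdown and 88.9, 99.5 and 91.0 in the BEAF-32 Dref knockdown. Each knockdown library exceeded each WT library, and BEAF-32 RNAi was higher than WT by a log2 fold change of 1.39 ± 0.26 (SE, adjusted p = 0.0019, edgeR quasi-likelihood test, Benjamini-Hochberg). It shares its 5′ end with CG7694 on the same strand, so reads of the shared part cannot be told apart. CG31224 fell by 0.42 ± 0.08 on the log2 scale (adjusted p = 0.0022, same test), from 206 to 219 CPM in WT to 143 to 169 CPM. CG7706 (22.9 to 27.8 against 25.9 to 29.2 CPM in WT) and dind (31.8 to 34.7 against 29.5 to 32.6 CPM) did not pass the test. Neither fray (log2 fold change 0.12 and -0.04) nor CG31224 (-0.29 and -0.18) passed the test between BEAF-32 RNAi and the 2 other knockdowns, which lacked these borders.

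Nearly all members lay inside a TAD of each other list. This follows from the rule, which keeps members over 2 kb from every border of those lists, and is not a result about them. A Cp190 Chro knockdown TAD covered 916 of the 923, and these TADs were long, with a median of 87482 bases per member against 44844 for all TADs of that list. A BEAF-32 Dref knockdown TAD covered 914, with a median of 155480 bases against 61346. A longer TAD has more room for a member, so the lengths describe the lists and are not a property of the members alone. The median member was 23117 bases from the nearer end of its Cp190 Chro knockdown TAD, and 473 (51.6%) lay in the central 50% of it, as did 457 (50%) in the BEAF-32 Dref knockdown TADs, which is the share that even placement along a TAD gives. Of the 2156 TADs of the Cp190 Chro knockdown list 663 held a member: 490 held 1, 132 held 2 and 41 held 3 or more, up to 14 at chr3R:593157-1248978. In the BEAF-32 RNAi list, 374 TADs had a member at both ends, 1089 at 1 end and 1087 at none, with median lengths of 42566 and 38520 bases and 39144 for those with none.

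The distance from a member to the nearest border of another list had a median of 17867 bases and quartiles of 6353 and 32870, up to 183444. It was under 5 kb for 186 members (20.2%) and under 10 kb for 335 (36.3%). The nearest border belonged to the Cp190 Chro knockdown for 536 members, to the BEAF-32 Dref knockdown for 240, and lay at the same distance in both for 147. The members just inside the 2-kb rule were at 2005, 2005, 2010 and 2018 bases, and the borders just outside it at 1998, 1997, 1989 and 1989 bases.

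As borders, the members were mostly weak, except near the centromeres. Of the 923, 262 (28.4%, 25.6 to 31.4%) were also in the stricter TAD list of BEAF-32 RNAi, called here the strong list. The share was 35.0% for borders shared with the Cp190 Chro knockdown alone, 46.6% with the BEAF-32 Dref knockdown alone and 75.4% with both. The deposited separation score, which is lower at a stronger border, had medians of 0.009, -0.082, 0.024 and -0.108 in the same order. Within 3 Mb of the proximal ends 106 of 165 members (64.2%, 56.7 to 71.2%) were strong, against 156 of 758 (20.6%, 17.9 to 23.6%) elsewhere. The 2 measures are not the same quantity: the study set the strong list by a stricter threshold on a difference in separation score, not by the score itself. They went opposite ways with genes. By the strong list, 80 of 501 members with a gene 5′ end within 2 kb were strong (16%), against 182 of 422 without one (43.1%). By the separation score, members with a 5′ end were the stronger ones, with a median of -0.041 against 0.065 without. Among borders shared with both lists the shares in the strong list were 77.4% and 69.9%, and the medians -0.132 and 0.001.

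**Figure D2:**
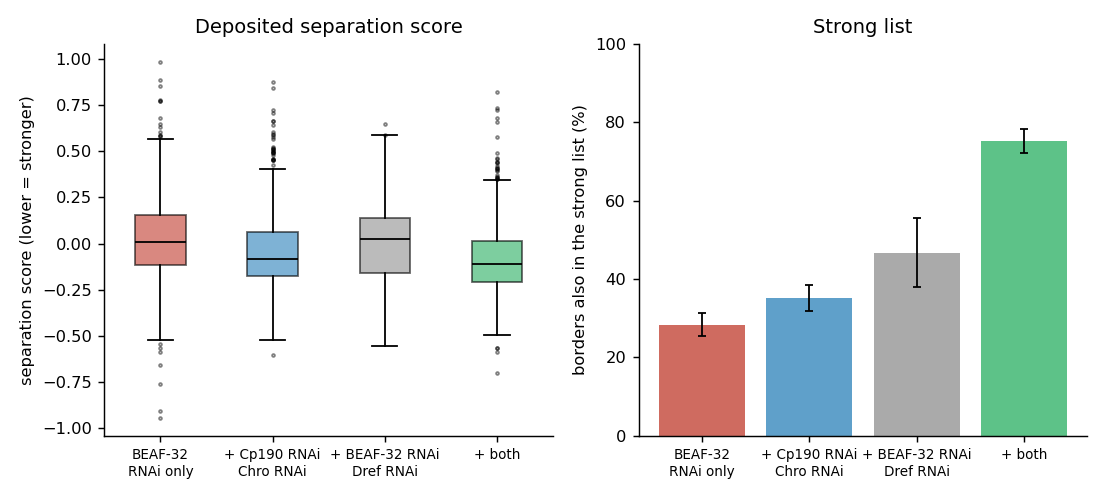
Left, deposited separation score (no unit; box, quartiles and median; whiskers reach 1.5 times the box; points, borders beyond) and right, share (%) of borders in the strong list with 95% Wilson intervals, for BEAF-32 RNAi borders found only there or shared. The members have a median score of 0.009 and 28.4% in the strong list, and borders shared with both other lists -0.108 and 75.4%.

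The strong members with the lowest scores lay in gene-poor DNA. The lowest score, -0.943, was at chr3R:393968, an intergenic position 173108 bases from the nearest 5′ end, that of Myo81F. The next were at chr3L:26944468 (-0.905, intergenic) and at chrX:21672174 (-0.760), inside lncRNA:flam, the flamenco locus that gives rise to piRNAs against mobile elements. Members in introns of Pzl (chr3R:3225588, -0.586), Myo81F (chr3R:1072572, -0.565) and lovit (chr3L:25636418, -0.520) were also among the 8 lowest. All 8 lay over 8 kb from any 5′ end, whereas the 5 CGATA-rich borders printed above lay within 400 bases of one.

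Members had a gene start nearby more often than genome windows, and less often than borders shared with the Cp190 Chro knockdown alone or with both. A gene 5′ end lay within 2 kb of 501 members (54.3%, 51.1 to 57.5%). This compared with 81.3% of borders shared with the Cp190 Chro knockdown alone, 44.1% with the BEAF-32 Dref knockdown alone, 72.5% with both, and 32.3% of 136802 genome windows of 1000 bases. Leaving out the members within 3 Mb of the proximal ends gave 63.3%, and among those within 3 Mb it was 12.7%. For genes of at least 10 CPM in WT the shares in the same order of groups were 40.6%, 70.7%, 28.0% and 61.2%. A pair of divergent genes, which start back to back, lay at 12.7% of members against 22.7%, 3.39% and 16.8% of borders shared with the Cp190 Chro knockdown alone, with the BEAF-32 Dref knockdown alone and with both. Members lay in intergenic DNA (42.1%), introns (32.1%), UTR exons (15.8%), coding exons (8.02%) and exons of non-coding genes (1.95%).

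**Figure D3:**
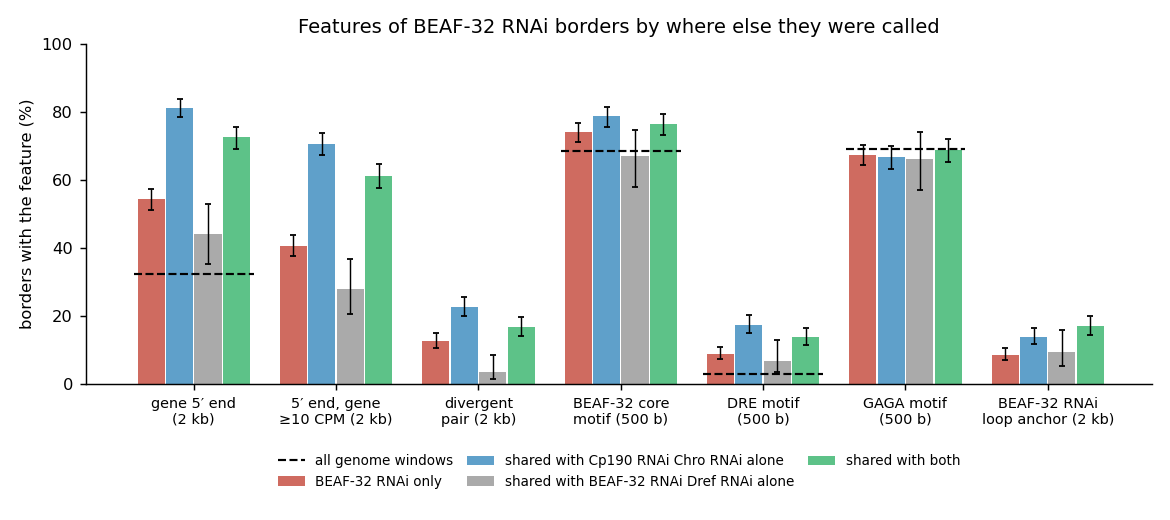
Share (%) of BEAF-32 RNAi borders with each feature, by where else the border was called; whiskers are 95% Wilson intervals and dashed lines the share of genome windows of the same size where it was computed. A gene 5′ end lies within 2 kb of 54.3% of the members, 81.3% of the borders shared with the Cp190 Chro knockdown alone and 32.3% of genome windows.

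Of the 3 motifs searched, DRE stood farthest above its genome share at members. TATCGATA, searched within 500 bases, was found at 82 members (8.88%, 7.21 to 10.9%), against 2.80% of genome windows, 17.5% of borders shared with the Cp190 Chro knockdown alone, 6.78% with the BEAF-32 Dref knockdown alone and 13.7% with both. CGATA, searched on both strands, was found at 74.1% of members, at 78.7%, 66.9% and 76.5% of the shared groups in the same order and at 68.4% of genome windows. At least 4 CGATA matches were found at 15.3% of members against 21.9%, 11.9% and 16.9%. GAGAG, the letters bound by GAGA factor, was found at 67.4% of members and 69.0% of genome windows, so it was not higher at members. DRE followed gene starts. It was found at 14.8% of members with a 5′ end within 2 kb (74 of 501) and 1.90% of those without (8 of 422), and the corresponding shares were 20.6% and 4% at borders shared with the Cp190 Chro knockdown alone. A match of letters does not show binding.

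**Figure D4:**
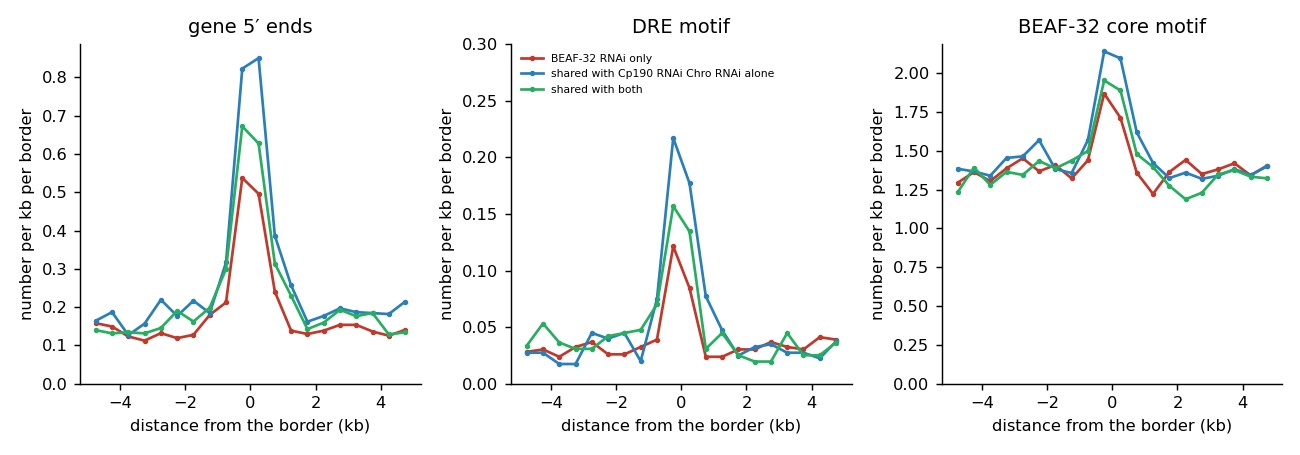
Number per kb and border of gene 5′ ends, DRE motifs (TATCGATA) and BEAF-32 core motifs (CGATA) in bins of 500 bases around the border (x axis, kb), for members and the 2 larger shared groups. All 3 peak at the border: at members the 500 bases upstream hold 0.54 gene 5′ ends, 0.12 DRE and 1.87 CGATA per kb, against 0.16, 0.028 and 1.29 in the bin farthest upstream.

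An anchor of a BEAF-32 RNAi chromatin loop lay within 2 kb of 80 members (8.67%, 7.02 to 10.7%), against 14.0% of borders shared with the Cp190 Chro knockdown alone, 9.32% (5.29 to 15.9%) with the BEAF-32 Dref knockdown alone and 16.9% with both. Anchors of Cp190 Chro knockdown loops lay at 17.3%, 19.3%, 21.2% and 24.9% of the members and these groups, and those of BEAF-32 Dref knockdown loops at 6.18%, 8.73%, 9.32% and 12.3%. Within 3 Mb of the proximal ends only 1 of 165 members was at a BEAF-32 RNAi anchor. Loops that ran across the position were about as common at members as at other borders: Cp190 Chro knockdown loops crossed 62.1% of members and 65.1% of all BEAF-32 RNAi borders, and BEAF-32 RNAi loops 33.8% of each.

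The RNA was read at the members through 953 genes with a 5′ end within 2 kb, 812 of them protein coding. Of these, 743 had at least 10 counts over the 12 libraries and were tested, at 427 members, and none was also within 2 kb of a shared BEAF-32 RNAi border. The tested genes at members were well expressed, with a median of 55.8 CPM in WT against 27.1 for all tested genes, and 54.8 and 70.3 CPM at borders shared with the Cp190 Chro knockdown alone and with both.

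The library totals ran from 7178403 to 12202598 counts. BEAF-32 RNAi replicate 3 was the smallest and stood apart: the replicates of its group correlated at 0.961 or above, those of the other groups at 0.996 or above, and 29.5% of its reads were not placed uniquely against 16 to 25.8% in the others. All 4 RNAi targets were lower in every knockdown library than in every WT library. BEAF-32 was at 88.6, 92.7 and 90.3 CPM in WT, 41.0, 44.6 and 74.8 in BEAF-32 RNAi, with 69.1, 69.7 and 80.8 in the Cp190 Chro knockdown and 59.4, 55.0 and 51.0 in the BEAF-32 Dref knockdown. Mean CPM of Cp190 was 432 in WT, 296 in BEAF-32 RNAi, 297 in the Cp190 Chro knockdown and 293 in the BEAF-32 Dref knockdown, that of Chro 330, 182, 196 and 164, and that of Dref 207, 125, 146 and 130. BEAF-32 RNAi did not differ by the test from either double knockdown in any of the 4 genes (adjusted p = 0.16 to 0.99, edgeR), so by this test these levels do not separate the labels of the knockdowns. For BEAF-32 against the Cp190 Chro knockdown the log2 fold change was -0.46 ± 0.18 (unadjusted p = 0.027, edgeR). Replicates 1 and 2 of BEAF-32 RNAi lay below every Cp190 Chro library and replicate 3 did not. The study itself reports that its knockdowns strongly and specifically lowered the mRNA and protein of the targets. The summed CPM of 5 muscle markers ran from 265 to 770 in BEAF-32 RNAi and from 320 to 329 in WT, that of 4 neuroblast markers from 18.8 to 69.1 and from 39.1 to 40.9, and that of 5 glia markers from 339 to 609 and from 914 to 943. That of 5 neuron markers ran from 102 to 125 in BEAF-32 RNAi and from 81.3 to 88.3 in WT, without overlap. Most of that sum was elav, whose ranges overlapped (73.6 to 111 and 75.2 to 78.8 CPM). Those of futsch did not (11.9 to 26.7 and 5.76 to 7.79 CPM). Within the neuroblast sum mira was at 1.80 to 4.84 CPM in BEAF-32 RNAi and 35.7 to 38.4 in WT, and insc at 15.9 to 66.1 and 1.73 to 2.57. The glia markers did not all fall. In mean CPM of BEAF-32 RNAi and WT, nrv2 was at 220 and 609 and Eaat1 at 8.24 and 25.7. By the same measure repo was at 52.2 and 60.3, moody at 236 and 230, and gcm at 0.115 and 0. In the muscle sum Act57B was at 309 and 178 and Mef2 at 125 and 146, with Mhc, Tm2 and up at most 2.46 in either group. The blood-cell factor srp was at 542 to 807 CPM in BEAF-32 RNAi and 786 to 816 in WT. The other tested blood-cell markers went the other way at low levels. Mean CPM in BEAF-32 RNAi and WT was 16.0 and 1.67 for eater, 1.37 and 0.638 for Hml, and 0.144 and 0.0611 for NimC1. The part of these markers in the results was not tested, and in bulk RNA fewer cells of a type cannot be told apart from less RNA per cell.

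Genes at the members changed against WT about as often as all genes. In BEAF-32 RNAi 138 of the 743 rose (18.6%) and 141 fell (19%), where 18.5% of all 10545 tested genes rose and 15.7% fell (adjusted p under 0.05, edgeR's quasi-likelihood test on all 12 libraries, Benjamini-Hochberg over all genes). At 2-fold or more, 62 rose (8.34%) and 14 fell (1.88%), with 11.6% and 2.65% over all genes. Their median log2 fold change was -0.005 against 0.075 over all genes. The genes lay at 225 members with at least 1 called gene. The libraries of the Cp190 Chro and BEAF-32 Dref knockdowns shared the WT controls. In the Cp190 Chro knockdown 149 of the 743 rose (20.1%) and 139 fell (18.7%) against WT, with 17.9% and 15.6% over all genes. In the BEAF-32 Dref knockdown 165 rose (22.2%) and 182 fell (24.5%), with 21.5% and 20.3% over all genes. Leaving out BEAF-32 RNAi replicate 3 gave 175 higher and 209 lower, and then 23.2% and 22.9% of all genes.

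The largest rises at members included an immune regulator, a clock gene and a neuropeptide receptor. pirk (chr2R:21660967-21662995), which dampens the Imd immune pathway, was at 1.54, 0.917 and 0.167 CPM in WT and 15.4, 14.2 and 53.2 CPM in BEAF-32 RNAi. Its border lay 423 bases from the 5′ end, and its log2 fold change was 4.98 ± 0.62 (adjusted p = 1.5e-04, edgeR), or 4.11 without BEAF-32 RNAi replicate 3. All 9 knockdown libraries were above all WT libraries, with 13.8 to 16.2 CPM in the Cp190 Chro knockdown and 21.5 to 25.3 in the BEAF-32 Dref knockdown.

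per (chrX:2685580-2692780), a core gene of the circadian clock, was at 4.04, 2.75 and 2.09 CPM in WT, 15, 15.4 and 50.8 in BEAF-32 RNAi, with 32, 33.3 and 37.3 in the Cp190 Chro knockdown and 36.4, 39.0 and 39.0 in the BEAF-32 Dref knockdown. It rose by 3.18 ± 0.46 (log2, adjusted p = 3.9e-04, edgeR), or 2.37 without BEAF-32 RNAi replicate 3, with its border 469 bases inside the gene. CG9801 (chr3R:8735879-8747675) was at 6.64, 5.23 and 7.01 CPM in WT and 38.1, 40.3 and 53.6 CPM in BEAF-32 RNAi, a log2 fold change of 2.80 ± 0.15 (adjusted p = 5.2e-07, edgeR). In the other knockdowns it was at 35.7 to 41.9 CPM, so it was high in all 3. ry (chr3R:13032528-13038020), which encodes xanthine dehydrogenase, rose by 2.79 ± 0.50 (adjusted p = 0.0016, edgeR), from at most 0.481 CPM in WT to 1.17, 2.03 and 3.41 CPM. It was at 2.79 to 4.58 CPM in the other knockdowns, so it too was above WT in all 3.

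In other genes 1 library set the size. Dh31-R (chr2R:13267798-13295927), the receptor of the neuropeptide DH31, was at 7.12, 10.1 and 9.35 CPM in WT and 70.7, 73.1 and 508 in BEAF-32 RNAi. Timp (chr3R:10203875-10213007), an inhibitor of matrix metalloproteases, was at 5.49, 4.13 and 6.10 CPM and then 27.1, 26.4 and 323. Their log2 fold changes were 4.61 ± 0.70 and 4.56 ± 0.89 (adjusted p = 5.6e-04 and 0.0026, edgeR) and became 3.02 and 2.35 without BEAF-32 RNAi replicate 3. Both were also above WT in each library of the other knockdowns, at 120 to 171 CPM for Dh31-R and 28.9 to 68.5 CPM for Timp. Cyp311a1 (chrX:12029754-12031465), a cytochrome P450, and yellow-f2 (chr3R:12993395-12995147), of the family that makes melanin precursors, had 1 and 3 counts in all WT libraries together and 57 and 119 in BEAF-32 RNAi. Their ratios were 70.8 (12.2 to 2846) and 49.3 (16.5 to 242), with exact 95% intervals for counting error, and adjusted p of 1.4e-04 and 6.1e-04 by edgeR. Both were also above WT in each library of the other knockdowns. Cyp311a1 was at 1.49 to 2.70 CPM in BEAF-32 RNAi and 0.872 to 1.78 in the others, and yellow-f2 at 1.70 to 10.1 and 4.27 to 9.50.

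The largest falls included a cell-cycle inhibitor and its divergent neighbour. dap (chr2R:9712321-9716256), which encodes the Cyclin E-Cdk2 inhibitor Dacapo, was at 171, 182 and 177 CPM in WT and 68.1, 64.0 and 30.7 CPM in BEAF-32 RNAi. It fell by 1.69 ± 0.21 on the log2 scale (adjusted p = 1.6e-04, edgeR), and the border lay 720 bases before its 5′ end. On the other side of the same border, lncRNA:CR44292 (chr2R:9708696-9710496) was at 1.35, 2.57 and 3.34 CPM in WT and at most 0.212 CPM in BEAF-32 RNAi. Its log2 fold change was -3.91 ± 0.71 (adjusted p = 0.0018, edgeR). In the other knockdowns dap was at 57.0 to 76.6 CPM and lncRNA:CR44292 at most 0.436 CPM, so both were low in all 3.

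CG14968 (chr3L:3299336-3303112), 911 bases from the strong border beside ZnT63C whose sequence is printed above, was at 6.16, 5.04 and 4.51 CPM in WT and 1.38, 0.775 and 1.14 CPM in BEAF-32 RNAi. It fell by 2.25 ± 0.38 on the log2 scale (adjusted p = 0.0012, edgeR). CG10433 (chr2R:21605676-21608125) was at 68.6 to 75.6 CPM in WT and 8.38, 9.98 and 46.1 CPM in BEAF-32 RNAi, a log2 fold change of -1.80 ± 0.47 (adjusted p = 0.013, edgeR) that became -2.99 without replicate 3. It overlaps asRNA:CR43243 (chr2R:21607687-21608477) on the other strand, which was at 2.42 to 3.03 CPM in WT and 0.142 to 0.484 CPM (log2 fold change -2.82 ± 0.63, adjusted p = 0.0058, edgeR). The counting used the default of HTSeq, which takes strand into account, but no source used here says whether the libraries kept strand, so reads of this pair may not be told apart. Drat (chr2R:7526118-7532981) was at 131 to 134 CPM in WT and 69.8, 70.5 and 22.2 CPM (-1.28 ± 0.30, adjusted p = 0.0072, edgeR), and CG30383 (chr2R:7823943-7825141) fell from 9.44 to 14.4 CPM to 1.71 to 6.37 CPM (-1.48 ± 0.38, adjusted p = 0.011, edgeR). In the other knockdowns CG14968 was at 0.349 to 1.07 CPM, CG10433 at 16.7 to 22.0, asRNA:CR43243 at 0.100 to 0.902 and Drat at 34.1 to 41.1. These genes were thus below WT in all 3. CG30383 was at 5.45 to 10.1 CPM there and did not pass the test against WT in either (adjusted p = 0.14 and 0.095, edgeR).

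Set against the other knockdowns, which lacked these borders, few genes at members differed in the fit of all 12 libraries. Many more did when BEAF-32 RNAi replicate 3 was left out, so the number depended on that library. Between BEAF-32 RNAi and the Cp190 Chro knockdown BEAF-32 RNAi had 21 higher (2.83%) and 34 lower (4.58%), where 3.25% and 3.65% of all genes were (edgeR, adjusted p under 0.05). Between BEAF-32 RNAi and the BEAF-32 Dref knockdown 16 were higher (2.15%) and 23 lower (3.10%), with 2.7% and 3.03% over all genes. At 2-fold or more, 3 were higher and 0 lower than in the Cp190 Chro knockdown by edgeR (0.759% and 0.759% of all genes), where 5 were lower at an unadjusted p under 0.05 and 1 by DESeq2, and 1 higher and 1 lower than in the BEAF-32 Dref knockdown (0.607% and 0.787%). In all, 22 genes were called against both knockdowns and 434 of the 743 in none of the 3 comparisons. Without BEAF-32 RNAi replicate 3 the counts were 139 and 195 against the Cp190 Chro knockdown (17.8% and 20.1% of all genes) and 165 and 197 against the BEAF-32 Dref knockdown (21.5% and 21.4%). A fit of only the 2 groups compared, also by edgeR, called 0 higher and 1 lower (pain) against the Cp190 Chro knockdown, where 43 and 58 had an unadjusted p under 0.05. It called 0 higher and 0 lower against the BEAF-32 Dref knockdown, where 44 and 47 did. DESeq2 over the 4 groups called 49 and 51 against the first and 36 and 41 against the second. The calls between knockdowns in the next paragraphs, for genes with a 5′ end at a member, thus rest on the spread shared over the 4 groups, but for that of pain against the Cp190 Chro knockdown.

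Genes that were lower in BEAF-32 RNAi than in both other knockdowns included lipid enzymes and a channel. CBP (chrX:7337352-7342731), with a border 1271 bases before its 5′ end, was at 187, 182 and 183 CPM in WT, 68.3, 63.3 and 92.7 in BEAF-32 RNAi, with 133, 134 and 129 in the Cp190 Chro knockdown and 143, 135 and 146 in the BEAF-32 Dref knockdown. BEAF-32 RNAi was the lowest group and overlapped none. The log2 fold changes were -1.30 ± 0.12 against WT, -0.82 ± 0.12 and -0.92 ± 0.12 against the other knockdowns in the same order (adjusted p = 1.6e-05, 0.0021 and 0.0012, edgeR).

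pain (chr2R:24921505-24928275), a TRPA channel of heat and touch sensing, was at 502, 517 and 507 CPM in WT, 346, 324 and 329 in BEAF-32 RNAi, with 575, 556 and 519 in the Cp190 Chro knockdown and 488, 534 and 515 in the BEAF-32 Dref knockdown. Only BEAF-32 RNAi was lower: its log2 fold changes were -0.61 ± 0.07, -0.72 ± 0.07 and -0.62 ± 0.07 (adjusted p = 6.8e-05, 1.8e-04 and 4.7e-04, edgeR), while the other knockdowns differed from WT by 0.11 and 0.01 (adjusted p = 0.22 and 0.92). The border lay 212 bases from its 5′ end. Pect (chr2L:13203762-13210828), an enzyme of phosphatidylethanolamine synthesis, was also lowest in BEAF-32 RNAi, at 262, 284 and 271 CPM in WT, 170, 171 and 235 in BEAF-32 RNAi, with 283 to 341 in the others. Its log2 fold changes were -0.51, -0.63 and -0.78, each ± 0.11 (adjusted p = 0.0057, 0.0081 and 0.0030, edgeR).

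Cp1, now named CtsL1 (chr2R:13960675-13967981), encodes the lysosomal protease cathepsin L and rose in every knockdown, least in BEAF-32 RNAi. It was at 384, 374 and 395 CPM in WT, 930, 900 and 865 in BEAF-32 RNAi, with 1387, 1447 and 1360 in the Cp190 Chro knockdown and 1473, 1459 and 1431 in the BEAF-32 Dref knockdown. The difference from the other knockdowns was -0.64 ± 0.06 and -0.69 ± 0.06 (adjusted p = 2.2e-04 and 1.6e-04, edgeR). bwa (chr2L:20066391-20073719), a ceramidase, was at 11.7 to 13.8 CPM in WT, 18.1, 14.7 and 21.5 in BEAF-32 RNAi, with 29.3 to 35.2 in the others, and its differences from them were -0.86 ± 0.13 and -0.84 ± 0.13 (adjusted p = 0.0036 and 0.0051, edgeR).

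Of the 22 genes called against both other knockdowns, 13 were lower and 9 higher in BEAF-32 RNAi. Of the 13, 5 were also called lower against WT and 2 higher, and of the 9, 1 was called higher against WT, 1 lower and 7 neither. Haspin (chr2R:4014111-4049342), the kinase of histone H3 at mitotic centromeres, was at 50.9, 47.2 and 46.2 CPM in WT, 40.7, 41.6 and 52.5 in BEAF-32 RNAi, with 26.7 to 29.9 in the others. It did not pass the test against WT (log2 fold change -0.10 ± 0.10) and was higher than in the others by 0.67 ± 0.11 and 0.65 ± 0.11 (adjusted p = 0.0036 and 0.0056, edgeR). Non1 (chr2R:9396265-9398734), a nucleolar GTPase of ribosome assembly, was at 475, 479 and 493 CPM in WT, 549, 546 and 502 in BEAF-32 RNAi, with 352 to 386 in the others, with differences of 0.57 ± 0.07 and 0.52 ± 0.07 (adjusted p = 5.4e-04 and 0.0012, edgeR).

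Ant2 (chrX:10778954-10786907), a mitochondrial ADP/ATP exchanger, was instead highest in BEAF-32 RNAi, at 25, 30.5 and 18.2 CPM against 7.60 to 9.17 in WT, 9.82 to 12.5 in the Cp190 Chro knockdown and 10.9 to 16.5 in the BEAF-32 Dref knockdown. Its log2 fold changes were 1.59 ± 0.21, 1.13 ± 0.20 and 0.84 ± 0.20 (adjusted p = 2.1e-04, 0.0081 and 0.034, edgeR), the last of which was lost in 5 of the 6 fits without 1 library. CBP, pain, Pect, Cp1, bwa, Haspin and Non1 stayed called against both knockdowns in each of the 6 fits without 1 library. The other genes that met the naming rule each lost a call without some library: Uhg8 and Hus1-like, with log2 fold changes of 1.53 (0.84 without BEAF-32 RNAi replicate 3) and 0.77 against the Cp190 Chro knockdown, and against the BEAF-32 Dref knockdown Cks30A (1.00), CG10738 (0.76), CG17490 (0.74), CG43324 (-1.12) and NUCB1 (-0.71).

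**Figure D5:**
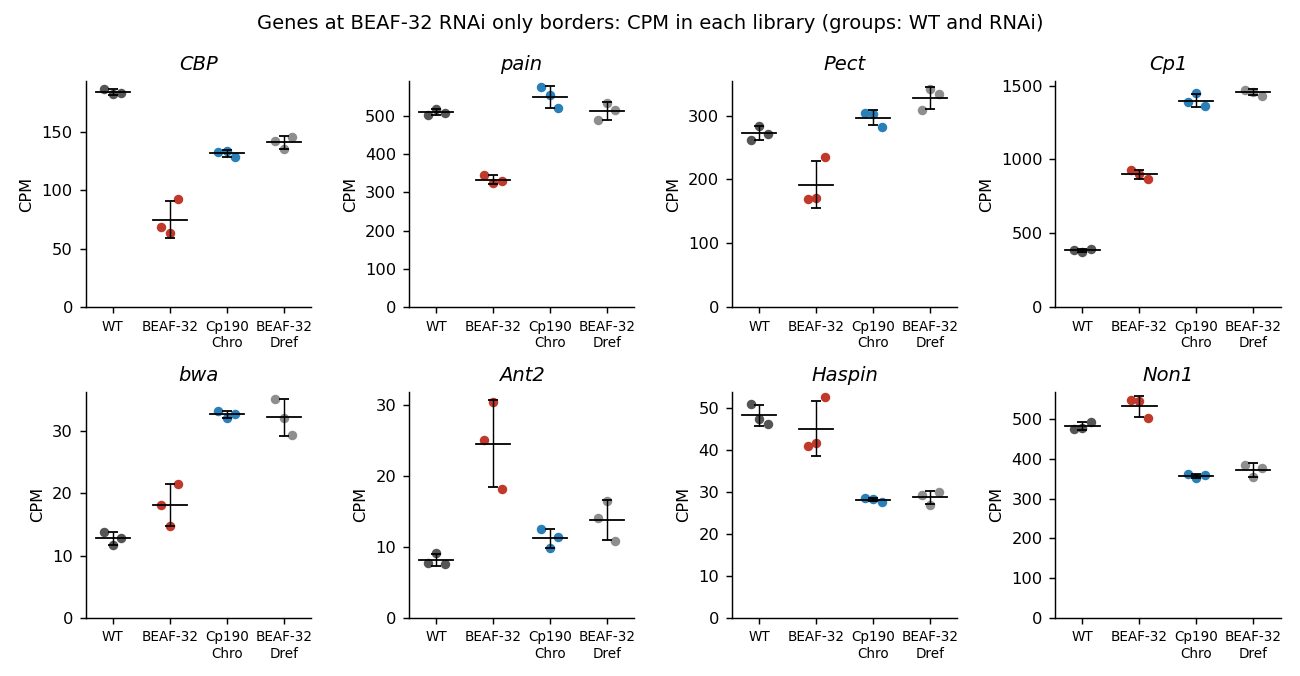
CPM in each library (points) with the mean and SD of 3 libraries (bar and whiskers) for 8 genes at members, in WT, BEAF-32 RNAi, the Cp190 Chro knockdown and the BEAF-32 Dref knockdown. CBP, pain and Pect are lowest in BEAF-32 RNAi, Cp1 and bwa lie between WT and the other knockdowns, and Ant2 is highest in BEAF-32 RNAi.

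Insulator and chromatin genes were among the genes at members. The border at chr3R:9258510 lay 9 bases from the 5′ end of Ibf2 and 454 bases from that of Ibf1, divergent genes whose proteins bind insulators together with Cp190. Ibf1 was at 45.9, 45.8 and 50.9 CPM in WT and 29.1, 29.8 and 16.1 in BEAF-32 RNAi, a log2 fold change of -0.92 ± 0.18 (adjusted p = 0.0028, edgeR). Ibf2 was at 29.3, 30.8 and 35.4 CPM in WT and 25.4, 20.5 and 11.5 in BEAF-32 RNAi, a log2 fold change of -0.72 ± 0.21 (adjusted p = 0.021, edgeR), a call lost without WT replicate 3 (adjusted p = 0.077). Ibf1 was also low in the other knockdowns, at 16.3 to 22.2 CPM. pita, a zinc-finger insulator protein, was at 127 to 130 CPM in WT and 106, 105 and 50.9 in BEAF-32 RNAi, with a log2 fold change of -0.55 ± 0.20 (adjusted p = 0.053, edgeR). These were the 3 of 18 tested insulator genes at members, or 16.7% where 7.05% of all tested genes lay at members. Of the 3, 2 were called lower, and of all 18, 12 (66.7%) were lower against WT, beside the 15.7% of all genes.

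Of 24 Polycomb and Trithorax genes, 3 lay at members (12.5%). ash1, a histone H3 methyltransferase of the Trithorax group, fell from 143, 147 and 148 CPM to 118, 115 and 82.2 (log2 fold change -0.47 ± 0.12, adjusted p = 0.014, edgeR). Su(z)12, a subunit of Polycomb repressive complex 2, was at 166, 164 and 155 CPM and then 121, 155 and 91.7, where the lowest WT and the highest BEAF-32 RNAi library were both at 155 (-0.40 ± 0.14, adjusted p = 0.047, edgeR), and the call was lost without any 1 WT library (adjusted p = 0.083 to 0.11). Pc, which reads the Polycomb mark and whose border was strong, was at 38.0, 38.3 and 33.4 CPM and then 24.8, 28.0 and 39.7, and did not pass the test (-0.25 ± 0.15, adjusted p = 0.21). Of the 24, 15 were lower against WT (62.5%). The only patterning gene at a member of 43 tested was elB (chr2L:14390628-14409549), a zinc-finger gene, which rose from 9.62, 10.2 and 9.52 CPM to 35.1, 29.0 and 37.5 (1.79 ± 0.11, adjusted p = 8.7e-07, edgeR) and reached 41.2 to 49.0 CPM in the other knockdowns. Cytoplasmic ribosomal protein genes lay at members in 13 of 84 cases (15.5%), 2 of them higher, and of all 84, 16 were higher (19%). The cohesin and condensin list had pds5 alone of 15 (6.67%), called lower, and of all 15, 12 were lower (80%). Proteasome, V-ATPase and Mediator genes had 6 of 76 (7.89%), 1 called lower, and of all 76, 13 were lower (17.1%).

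Long neuronal genes met the members inside the gene rather than at the start. Of 41 tested genes of neuronal adhesion and axon guidance, 2 had their 5′ end at a member, and 12 had a member within the gene body, or 29.3% against 3.85% of all tested genes. These genes were long, with a median of 43752 bases against 2507, and a longer gene holds more borders of any kind: 6 of the 41 held a border shared with the Cp190 Chro knockdown alone and 4 one shared with both. Of the 12, 3 were higher against WT and 3 lower, the genes below being named because they passed the test. NetA (chrX:14604012-14653928), a netrin that guides axons, was at 185, 187 and 201 CPM in WT, 306, 314 and 272 in BEAF-32 RNAi, with 414 to 437 in the others. Its log2 fold change was 0.64 ± 0.07 against WT and -0.53 ± 0.07 and -0.48 ± 0.07 against the other knockdowns (adjusted p = 6.9e-05, 0.0013 and 0.0030, edgeR), so it lay between them. kek2 rose from 2.41, 5.13 and 4.51 CPM to 14.2, 13.8 and 5.83 (1.5 ± 0.34, adjusted p = 0.0062, edgeR). Sema-1a (-0.57 ± 0.11), Fas3 (-0.55 ± 0.14) and fz (-0.23 ± 0.06) fell (adjusted p = 0.0020, 0.013 and 0.017, edgeR), fz not without WT replicate 3 (adjusted p = 0.070). CG42343, the third higher gene, was called (adjusted p = 0.033, edgeR) on few reads, with 1 library of WT above 0, at 0.0917 CPM, and at most 3.27 CPM in BEAF-32 RNAi.

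Of 29 ion channel and synapse genes none had its 5′ end at a member and 4 spanned one. nAChRalpha6 (chr2L:9793317-9886250), a subunit of the nicotinic acetylcholine receptor, fell from 34.9, 28.7 and 29.98 CPM to 6.26, 5.52 and 9.10 (log2 fold change -2.18 ± 0.18, adjusted p = 8.4e-06, edgeR), and was at 8.82 to 11.1 CPM in the other knockdowns. nAChRalpha3 fell from 7.79, 6.14 and 11.5 CPM to 2.44, 3.29 and 4.69 (-1.30 ± 0.29, adjusted p = 0.0056, edgeR). Snap25, a vesicle fusion protein whose gene held 2 members, was at 1.5 to 2.29 CPM in WT and 2.44, 4.17 and 44.5 in BEAF-32 RNAi, with a log2 fold change of 3.05 ± 0.88 (adjusted p = 0.020, edgeR). It became 0.75 without BEAF-32 RNAi replicate 3 (adjusted p = 0.030), and the call was lost without any 1 WT library (adjusted p = 0.058 to 0.073). Zasp52 (chr2R:15762565-15817004), a Z-disc protein of muscle, rose from 44.8, 46.6 and 47.3 CPM to 170, 170 and 108 (1.70 ± 0.15, adjusted p = 1.3e-05, edgeR), and was at 164 to 200 CPM in the others.

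Over all 403 tested genes with a member in the gene body, 93 rose (23.1%) and 71 fell (17.6%) against WT, beside the 18.5% and 15.7% of all genes. l(3)80Fg (chr3L:25798441-26014112), a gene of proximal 3L counted as CG40178, held 4 members. It was at 59.2, 54.6 and 54.7 CPM in WT, 52.1, 42.1 and 42.2 in BEAF-32 RNAi, with 22.4, 26.8 and 25.9 in the Cp190 Chro knockdown and 26.0, 21.8 and 30.9 in the BEAF-32 Dref knockdown. BEAF-32 RNAi was above both other knockdowns with no overlap, by 0.86 ± 0.13 and 0.79 ± 0.13 on the log2 scale (adjusted p = 0.0035 and 0.0065, edgeR), and did not pass the test against WT (-0.30 ± 0.13, adjusted p = 0.093). SKIP, with its 3 members and no shared border, was at 47.2 to 48.1 CPM in WT and 75.5, 80.2 and 34.3 in BEAF-32 RNAi, which spanned the WT level (0.41 ± 0.23, adjusted p = 0.19).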

How the data were processed

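Hi-C reads were aligned by the authors to dm6 with BWA, replicates were summed and corrected at DpnII fragment resolution, and TADs were called with HiCExplorer, a stricter setting giving the strong list. The deposited TAD lists carry a separation score per TAD, read here at its start border. The authors called loops with HiCCUPS in Juicer, and of the deposited loop lists only the anchors were used, not the contact signal. RNA-seq reads were trimmed (Trimmomatic 0.39), aligned (TopHat2 2.1.2, Bowtie2 2.3.4.1), stripped of duplicates (Picard) and deposited by the authors as HTSeq counts per gene, run with no strand option, which by default counts on the strand of the gene. Reads that HTSeq assigned to no gene (39.4 to 44.1% of each library) or that were not placed uniquely were left out. Under that default the reads assigned to no gene can include reads within a gene on its other strand. Their share was not measured.

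Here borders were compared at a tolerance of 2 kb, and gene 5′ ends, mobile elements and sequence came from the RefSeq annotation of dm6. Of the borders of the BEAF-32 RNAi list 94.8% lay within 10 bases of the midpoint between neighbouring GATC sites of that assembly. Of 16727 counted symbols 12512 matched it by symbol and 4062 by synonym, 153 did not match, and 16506 matched 1 to 1. Genes with at least 10 counts over the 12 libraries (10545) were tested with edgeR 4.0.16 (R 4.3.3): TMM scaling, quasi-likelihood F test over all 4 groups, Benjamini-Hochberg adjustment, call at 0.05, an approximate standard error from the log2 fold change and its F. The test recovered changes made in simulated counts. Intervals are Wilson intervals at 95% and cover counting error only. Tables and figures used Python 3.11.15, pandas 2.3.3, scipy 1.17.1 and matplotlib 3.10.9. Alternatives included DESeq2 1.42.0, other scalings and filters, leaving out each library, other tolerances and windows.

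Genes were named if called, if every library of the higher group exceeded every library of the lower one and if the higher group had at least 10 counts in each library, taking the 8 largest rises and falls against WT and the 5 against each other knockdown, with up to 4 genes of each list at members. Genes spanning members were named after their values were seen. The members and the gene lists were chosen with earlier results of these data known.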

Additional observations from a re-analysis of the deposited data

How the results depend on the processing

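The number of members was 1159, 737 and 588 at tolerances of 1, 5 and 10 kb, and 262 in the strong list. Motif shares moved with the window, as they did in the genome: with 250 and 1000 bases to each side, CGATA was at 51.4% and 91.9% of members (genome 44.7% and 89.2%), TATCGATA at 5.53% and 12% (1.41% and 5.50%) and GAGAG at 42.1% and 88.4% (44.9% and 89.7%). Without the members within 3 Mb of the proximal ends, an alternative chosen after seeing the data, a 5′ end lay at 63.3% and 20.6% were strong, and with a 5-kb tolerance 22.7% were strong.

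Counts of called genes at members, higher and then lower, moved as follows, with the causes not tested beyond the smaller or larger sets themselves. The share over all genes is given above for the main fit, at 2-fold and without BEAF-32 RNAi replicate 3, and not for the other fits. Against WT they were 56 and 61 of 725 in a fit of the 2 groups, 62 and 14 of 743 at 2-fold, 223 and 218 in the larger set with 5′ ends within 5 kb, and 21 and 26 of 108 at strong members (19.4% and 24.1%). For genes spanning a member they were 93 and 71 of 403 (23.1% and 17.6%). All genes gave 18.5% and 15.7% in the main fit. Leaving out 1 library gave 91 to 175 and 104 to 209. Against Cp190 RNAi Chro RNAi they were 0 and 1, 3 and 0, 38 and 55, and 2 and 6 for the first 4 sets in the same order. The last are 1.85% and 5.56% of 108, with 3.25% and 3.65% over all genes. They were 49 higher with DESeq2, 13 higher without a count filter, and 6 to 139 and 10 to 195 leaving out 1 library. Against BEAF-32 RNAi Dref RNAi they were 0 and 0, 1 and 1, 27 and 41, and 0 and 1 in that order. With DESeq2 they were 36 and 41, without a filter 9 higher, and 2 to 165 and 9 to 197 leaving out 1 library. For spanning genes they were 8 and 18 of 403 (1.99% and 4.47%), with 2.7% and 3.03% over all genes. Beside the 0 calls by edgeR in the fits of 2 groups, 43 (higher, Cp190 Chro knockdown), 44 and 47 (higher and lower, BEAF-32 Dref knockdown) had an unadjusted p under 0.05.

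With the replicate number as a block the counts were 127 and 130, 11 and 17, and 9 and 18; same-numbered libraries did not deviate together (correlations -0.166 to 0.069 over 18 pairs), so the numbers were not taken as pairing the samples. For 66 values of named genes, 788 recomputed values under the alternatives gave no change of direction: 691 kept their side of the threshold, 89 lost it (39 in the fit of 2 groups) and 8 gained it.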
